A study of Homo sapiens with 12 samples.

Results

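The zinc finger genes with symbols from ZNF400 to ZNF799 were followed in MDA-MB-468 breast cancer cells treated with the DOT1L inhibitor EPZ5676. Members were chosen by symbol alone: every row of the count table whose Ensembl identifier mapped to ZNF followed by a number in that range. The rule gave 260 of the 57783 genes in the table, and 231 of them passed the filter on low counts, among 16327 genes tested. No expression value entered this rule, though the members were chosen with earlier results of these data known.

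Most of these genes encode proteins with arrays of C2H2 fingers, short loops held by a zinc ion that read DNA bases. Many also carry a KRAB domain at the front of the protein, which recruits the scaffold TRIM28 (KAP1) and, through it, the H3K9 methyltransferase SETDB1, HP1 proteins and the NuRD complex, so that bound sequences are silenced. Known targets include endogenous retroviruses, other transposons and imprinted loci. The genes arose by repeated duplication and lie in clusters, above all on chromosome 19. DOT1L is the enzyme that methylates lysine 79 of histone H3 in the body of transcribed genes, and EPZ5676 (pinometostat) blocks its catalytic site.

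MDA-MB-468 is a triple-negative breast cancer line of basal type. Per the labels, cultures received 0.5 µM EPZ5676 or the solvent DMSO for 10 days and were then sorted by FACS into ALDH1+ and ALDH1- cells, which gives EPZ5676 ALDH1+, EPZ5676 ALDH1-, DMSO ALDH1+ and DMSO ALDH1- groups with 3 biological replicates each. All groups are the same cell line, grown in the same serum-containing medium, at 1 dose and 1 time, and no genotype was altered. The values are reads per gene from total RNA, given as CPM, counts relative to library size after TMM scaling.

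Library totals ran from 24348594 to 80195050 counts, with EPZ5676 ALDH1+ replicate 2 the deepest and DMSO ALDH1+ replicate 3 next at 58004508 counts. Summed CPM of 7 basal carcinoma markers was 11030 to 14590 in EPZ5676 libraries and 7766 to 11600 in DMSO libraries. ESR1 and PGR, the hormone receptors the line is known to lack or hold at low level, summed to 6.80 to 9.88 CPM in EPZ5676 libraries and 7.64 to 10.9 CPM in DMSO libraries, nearly all of it ESR1, since PGR was at 0 in every library of 3 groups. Summed leukocyte markers (3 genes) were 9.18 to 17.0 CPM in EPZ5676 and 6.96 to 11.2 CPM in DMSO, fibroblast markers (3 genes) 18.8 to 24.8 CPM in EPZ5676 and 8.65 to 14.03 CPM in DMSO, and endothelial markers (2 genes) 0.412 to 0.945 CPM in EPZ5676 and 0.197 to 0.478 CPM in DMSO. Fibroblast and leukocyte sums were higher in EPZ5676 without overlap within each population, and the basal and endothelial sums within ALDH1+ cells. The receptor sums were lower in EPZ5676 without overlap within ALDH1- cells. EGFR made up most of the basal sum, CSF1R most of the leukocyte sum and COL1A1 nearly all of the fibroblast sum. Single markers went both ways in the effect averaged over both populations. EGFR (log2 fold change 0.48) and KRT17 (1.175) were called higher and EPCAM (-0.21), CDH1 (-0.61) and TP63 (-1.06) lower, while KRT5 and KRT14 were not called. PTPRC (1.79) and CSF1R (0.71) were called higher and CD14 (-0.84) lower. The part of these markers in the results below was not tested.

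The members were genes of low to middle level. Their mean CPM over the 6 DMSO libraries ran from 0.310 to 188, with a median of 13.4 and quartiles of 6.56 and 25.8, against a median of 18.7 CPM for all genes tested. Per kilobase of exon the highest members were ZNF593 at 40.7 CPM per kb, ZNF622 at 34.2, ZNF664 at 29.7, ZNF787 at 22.9 and ZNF428 at 21.7, all as DMSO means. The products of ZNF593 and ZNF622 are known as factors of large ribosomal subunit assembly. Of the 231 members, 228 reached the CPM of the filter (0.359) in all 12 libraries and 230 reached it in at least 3 libraries of each treatment, so only 1 passed through a single treatment, DMSO. The other 29 members fell below the filter, and 12 of these were listed at 0 in every library, which also depends on an annotation and counting not given in the sources used here.

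Under EPZ5676 the zinc finger genes moved little, and more of them fell than rose. In ALDH1+ cells 12 members rose and 27 fell, in ALDH1- cells 6 rose and 12 fell, and in the effect averaged over both populations 19 rose and 47 fell (edgeR quasi-likelihood test, adjusted p below 0.05 over all 16327 genes). The genome-wide picture leaned the other way, with more genes called higher than lower. The averaged effect took ALDH1+ and ALDH1- libraries of the same replicate number as independent, although same-numbered libraries deviated together. ZNF462 was the largest rise in both populations and ZNF750 the largest fall, and no other member reached a called 2-fold averaged change (background 6.92% higher and 1.15% lower). In bulk RNA, fewer cells that express a gene and less RNA per cell cannot be told apart.

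In ALDH1+ cells 16.9% of the members were called, against 31.5% of all genes tested. The share called higher was 5.19% of the members and 17.8% of all genes, and the share called lower was 11.7% of the members and 13.7% of all genes. In ALDH1- cells 7.79% of the members were called, against 22.6% of all genes, with 2.60% higher and 5.19% lower among the members and 13.6% higher and 9.04% lower among all genes. For the averaged effect 28.6% of the members were called, against 41.9% of all genes, with 8.23% higher and 20.3% lower among the members and 21.9% higher and 20.0% lower among all genes. The members' share of higher calls was therefore below the background in each comparison, while their share of lower calls stood near it in the averaged effect.

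The median log2 fold change of the members was -0.05 in ALDH1+ cells, -0.07 in ALDH1- cells and -0.06 averaged, against -0.01, -0.02 and -0.02 for all genes tested. Averaged estimates were below 0 for 148 members (64.1%), against 53.1% of all genes. From the 10th to the 90th percentile, averaged log2 fold changes ran from -0.34 to 0.16 in the members and from -0.36 to 0.72 in all genes. The spread of all genes reached further upward than that of the members, while the lower ends lay close together. In ALDH1+ cells the 3 EPZ5676 libraries lay above the 3 DMSO libraries for 27 members (11.7%, against 22.0% of all genes) and below them for 42 (18.2%, against 19.3%). In ALDH1- cells they lay above for 16 members (6.93%, against 19.7% of all genes) and below for 33 (14.3%, against 19.4%). The called falls were modest: apart from ZNF750 they lay between -0.15 and -0.62 on the averaged log2 scale.

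The gap in higher calls remained when the comparison was made with genes of like DMSO level. The 15053 other genes in the members' range were weighted so that their mean DMSO log2 CPM, in bins 1 unit wide, had the members' distribution. Of these, 21.8% were called higher and 20.6% lower in the averaged effect, against 8.23% and 20.3% of the members. Called changes of at least 2-fold made up 5.64% of the level-matched genes and 0.866% of the members, which is ZNF462 and ZNF750. The median standard error of the averaged log2 fold change was 0.085 for the level-matched genes and 0.080 for the members. The part of precision in the shares called was not tested. In ALDH1+ cells 17.8% of the level-matched genes were called higher and 14.0% lower, against 5.19% and 11.7% of the members. In ALDH1- cells the level-matched shares were 13.7% higher and 9.25% lower, against 2.60% and 5.19% of the members.

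**Figure D1:**
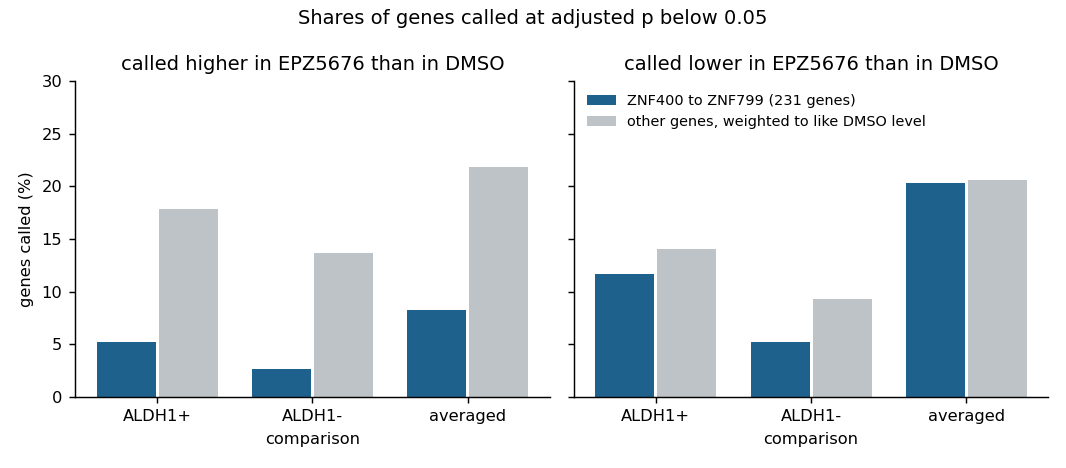
Shares of genes called higher (left panel) or lower (right panel) in EPZ5676 than in DMSO, in percent, for ALDH1+ cells, ALDH1- cells and the averaged effect. Dark bars are the 231 zinc finger genes and grey bars the other genes weighted to the same DMSO levels. For higher calls in the averaged effect the dark bar stands at 8.23% and the grey bar at 21.8%, and for lower calls at 20.3% and 20.6%.

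The lean toward lower calls was also counted by level of expression, without a test. In the averaged effect, members at 2 to 3 DMSO log2 CPM numbered 39, of which 4 were called higher and 8 lower, and at 3 to 4 they numbered 58, with 4 higher and 15 lower. At 4 to 5 there were 62 members, with 6 higher and 13 lower, and at 5 to 6 there were 30, with 4 higher and 6 lower. Among the other genes, the shares called higher were 29.2%, 22.6%, 17.1% and 16.2% from the lowest to the highest of these bins. Their shares called lower were 17.5%, 20.4%, 23.9% and 26.1%. In each of these bins more members were called lower than higher, and so were more of the other genes at 4 to 5 and at 5 to 6.

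**Figure D2:**
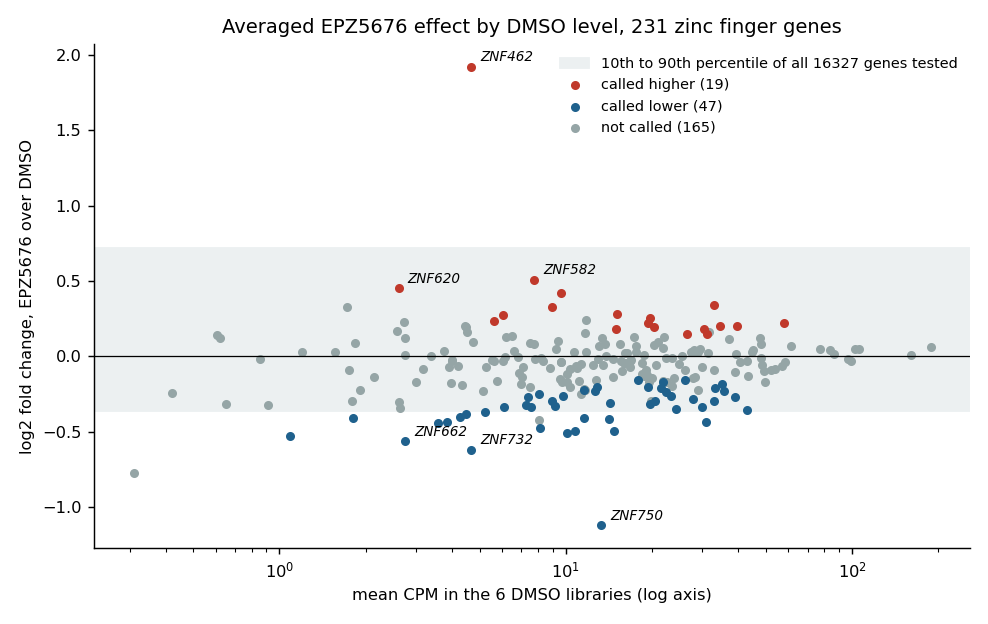
Averaged log2 fold change, EPZ5676 over DMSO, of each of the 231 members against its mean CPM in the 6 DMSO libraries (log axis). Red points are members called higher, blue points members called lower, grey points members not called, and the band spans the 10th to 90th percentile of all genes tested, from -0.36 to 0.72. Most points lie between -0.5 and 0.5, with ZNF462 far above and ZNF750 far below.

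The replicate numbers paired the libraries, since deviations from group means went together in all 18 same-numbered pairs. With the replicate number as a block, calls in ALDH1+ cells grew to 22 higher and 49 lower (9.52% and 21.2% of the members, against 22.2% and 19.6% of all genes). In ALDH1- cells the block gave 14 higher and 27 lower (6.06% and 11.7%, against 17.4% and 14.8% of all genes), and in the averaged effect 23 higher and 69 lower (9.96% and 29.9%, against 24.9% and 25.0% of all genes), so that with the block the members' lower share stood above the background in ALDH1+ cells and in the averaged effect. In ALDH1+ cells the counts fell to 4 higher and 10 lower without EPZ5676 replicate 1, to 6 and 11 without EPZ5676 replicate 2, and to 6 and 15 without DMSO replicate 3. In ALDH1- cells they fell to 2 higher and 5 lower without EPZ5676 replicate 2, to 2 and 4 without DMSO replicate 3, and to 3 and 6 without DMSO replicate 2, while 3 were lower without EPZ5676 replicate 1. The averaged effect had 31 to 58 lower and 12 to 17 higher calls when any library was left out, with 31 lower without DMSO ALDH1- replicate 3 and 12 higher without DMSO ALDH1- replicate 2. Without TMM factors, calls in ALDH1- cells were 7 higher and 7 lower. Shares of all genes called with a library left out or without TMM factors are not given here. A general loss of calls can therefore not be told from one particular to the members.

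The median shift of the members also differed between libraries of the same group. Relative to the DMSO mean of the same population, the median log2 CPM of the 231 members moved by -0.10, -0.09 and 0.01 in EPZ5676 ALDH1+ replicates 1, 2 and 3. In EPZ5676 ALDH1- replicates 1, 2 and 3 it moved by -0.09, -0.07 and -0.03. In the DMSO ALDH1- libraries it ran from -0.05 in replicate 1 to 0.05 in replicate 3, and in the DMSO ALDH1+ libraries it stayed between 0.00 and 0.02. EPZ5676 ALDH1+ replicate 3 was thus not below every DMSO library, and the ALDH1- groups overlapped. Gene by gene within same-numbered libraries, the median difference in log2 CPM of the members, EPZ5676 minus DMSO, was -0.10, -0.07 and 0.01 in ALDH1+ pairs 1, 2 and 3 and -0.02, -0.07 and -0.09 in ALDH1- pairs 1, 2 and 3. All but ALDH1+ pair 3 were below 0, and over all genes these medians lay between -0.025 and 0.005. Without the 4 libraries numbered 3, calls were 11 higher and 34 lower in ALDH1+ cells and 4 higher and 7 lower in ALDH1- cells. The shares of all genes called without these libraries are not given here.

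**Figure D3:**
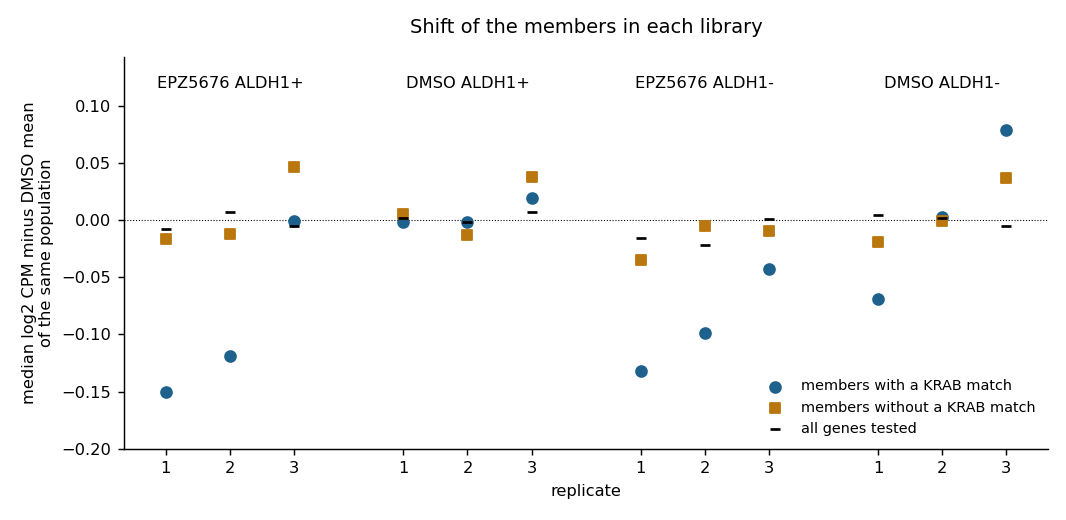
Median difference in log2 CPM from the DMSO mean of the same population, for each of the 12 libraries. Blue circles are members with a KRAB match, orange squares members without, and black dashes all genes tested. In EPZ5676 ALDH1+ replicates 1 and 2 the circles stand at -0.15 and -0.12 and the squares at -0.02 and -0.01, whereas in replicate 3 the circle is at 0.00 and the square at 0.05.

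ZNF462, a very large finger protein that binds HP1-marked chromatin in mouse embryonic stem cells and whose loss of 1 copy causes a human developmental syndrome, rose 4.47-fold in ALDH1+ cells and 3.20-fold in ALDH1- cells. In ALDH1+ cells it had 19.7, 16.9 and 15.7 CPM in EPZ5676 libraries, against 4.95, 4.02 and 2.96 CPM in DMSO libraries. In ALDH1- cells it had 18.7, 19.6 and 13.6 CPM in EPZ5676 libraries, against 5.68, 5.54 and 4.95 CPM in DMSO libraries. Every EPZ5676 library lay above every DMSO library in both populations. The log2 fold change was 2.16 ± 0.18 (SE, adjusted p = 6.14e-07) in ALDH1+ cells and 1.68 ± 0.18 (adjusted p = 9.20e-06) in ALDH1- cells, with 3 replicates in each group. It stayed called under every alternative tried, with log2 fold changes from 1.58 to 2.35 over both populations.

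ZNF750, a transcription factor that drives terminal differentiation of the epidermis and is lost in squamous carcinomas, fell to less than its DMSO level in every EPZ5676 library. In ALDH1+ cells it had 7.78, 4.06 and 7.85 CPM in EPZ5676 libraries, against 16.1, 11.8 and 14.3 CPM in DMSO libraries. In ALDH1- cells it had 6.28, 4.60 and 6.82 CPM in EPZ5676 libraries, against 12.8, 10.1 and 14.9 CPM in DMSO libraries. The groups did not overlap in either population. The log2 fold change was -1.14 ± 0.23 (SE, adjusted p = 0.00151) in ALDH1+ cells and -1.10 ± 0.24 (adjusted p = 0.00363) in ALDH1- cells. TP63, the epithelial master regulator that acts upstream of ZNF750 in keratinocytes, had log2 fold changes of -1.35 (adjusted p = 0.00682) in ALDH1+ cells and -0.78 (adjusted p = 0.123) in ALDH1- cells. Its level was low, at 0.46 to 1.06 CPM in EPZ5676 ALDH1+ libraries, against 0.98 to 1.84 CPM in DMSO ALDH1+ libraries. In ALDH1- cells it had 0.72 to 1.25 CPM in EPZ5676, against 1.21 to 2.15 CPM in DMSO. The groups overlapped in both populations, and a link between TP63 and ZNF750 was not tested.

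**Figure D4:**
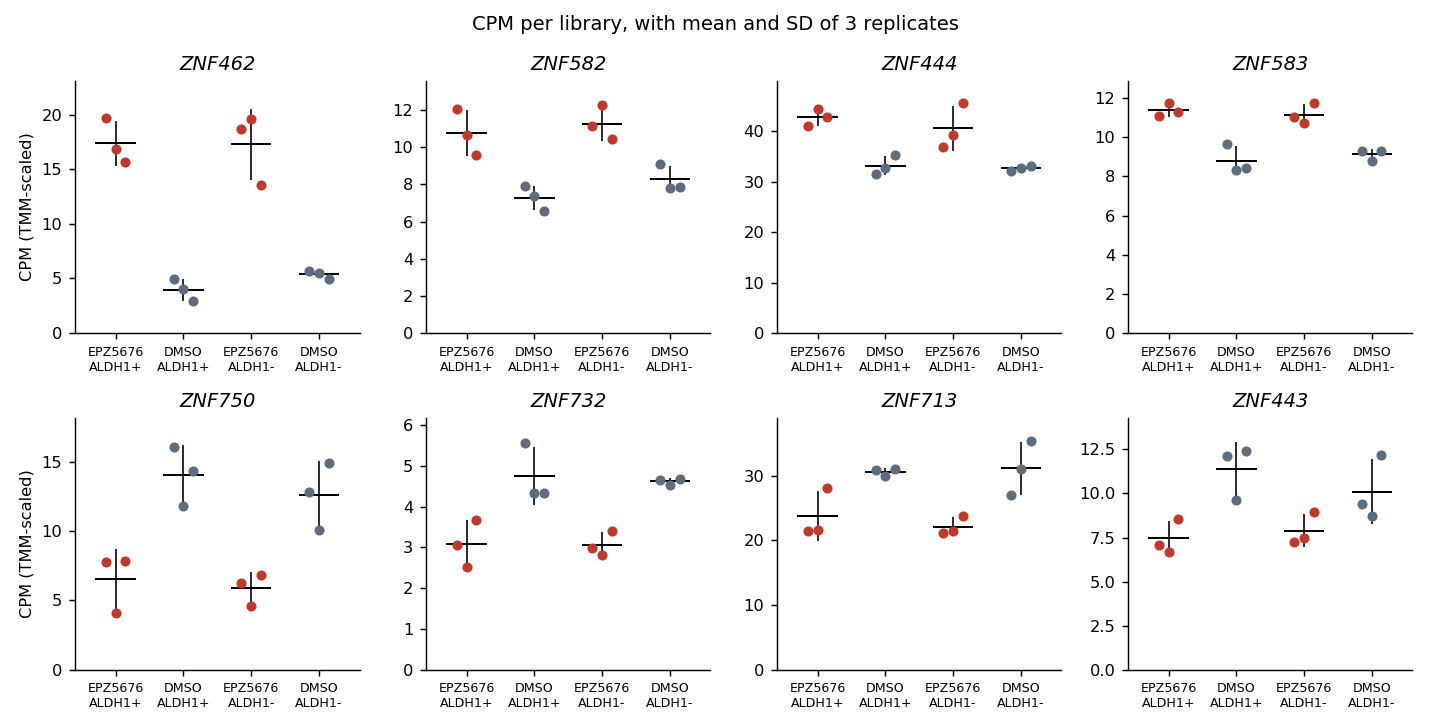
TMM-scaled CPM of 8 members in each of the 12 libraries (points, 3 per group), with the group mean (horizontal line) and SD (vertical line), EPZ5676 in red and DMSO in grey. The upper row holds 4 genes called higher in both populations. In the lower row ZNF750, ZNF732 and ZNF713 were called lower in both populations and ZNF443 in ALDH1+ cells. In the ZNF462 panel EPZ5676 libraries stand between 13.6 and 19.7 CPM and DMSO libraries between 2.96 and 5.68 CPM.

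Apart from ZNF462, 4 members were called higher in both populations: ZNF582, ZNF697, ZNF444 and ZNF583. ZNF582, a KRAB gene whose promoter methylation is used as a marker of cervical neoplasia, had 12.1, 10.7 and 9.57 CPM in EPZ5676 ALDH1+ libraries, against 7.90, 7.37 and 6.59 CPM in DMSO ALDH1+ libraries. In ALDH1- cells it had 11.1, 12.3 and 10.4 CPM in EPZ5676, against 9.13, 7.82 and 7.87 CPM in DMSO. The groups were apart in both populations, and its log2 fold changes were 0.57 ± 0.12 (SE, adjusted p = 0.00205) and 0.45 ± 0.12 (adjusted p = 0.0143) in ALDH1+ and ALDH1- cells.

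ZNF444, a SCAN-domain protein known to bind the promoter of the scavenger receptor gene SCARF1 in endothelial cells, had 41.1, 44.5 and 42.9 CPM in EPZ5676 ALDH1+ libraries, against 31.5, 32.7 and 35.3 CPM in DMSO ALDH1+ libraries. In ALDH1- cells it had 36.8, 39.3 and 45.6 CPM in EPZ5676, against 32.2, 32.7 and 33.0 CPM in DMSO. EPZ5676 libraries were again all higher, with log2 fold changes of 0.37 ± 0.08 (SE, adjusted p = 0.00338) in ALDH1+ cells and 0.31 ± 0.08 (adjusted p = 0.0134) in ALDH1- cells. ZNF583, a KRAB gene, had 11.1, 11.7 and 11.3 CPM in EPZ5676 ALDH1+ libraries and 9.64, 8.33 and 8.44 CPM in DMSO ALDH1+ libraries. Its log2 fold changes were 0.37 ± 0.09 (adjusted p = 0.00694) in ALDH1+ cells and 0.29 ± 0.10 (adjusted p = 0.0420) in ALDH1- cells. ZNF697 rose by 0.40 ± 0.13 (adjusted p = 0.0354) and 0.45 ± 0.14 (adjusted p = 0.0247) on the same scale in ALDH1+ and ALDH1- cells, its groups apart in both.

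Other rises were called in a single population. ZNF620, a KRAB gene of low level, had 3.85, 3.62 and 3.54 CPM in EPZ5676 ALDH1+ libraries and 2.66, 2.79 and 2.55 CPM in DMSO ALDH1+ libraries, which is 0.47 ± 0.15 on the log2 scale (SE, adjusted p = 0.0273). In ALDH1- cells its log2 fold change was 0.44 ± 0.16 (adjusted p = 0.0595, or 0.0373 with the replicate block). ZNF579 rose in ALDH1+ cells by 0.36 ± 0.13 (adjusted p = 0.0484), and its ALDH1- value was 0.15 ± 0.13 (adjusted p = 0.466). ZNF622, which releases factors from the maturing large ribosomal subunit, rose in ALDH1- cells, with 73.9, 68.5 and 65.1 CPM in EPZ5676 libraries and 63.7, 57.0 and 52.2 CPM in DMSO libraries (log2 fold change 0.26 ± 0.08, adjusted p = 0.0334). The difference between the populations was not called for any of these genes.

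Of the members called lower, 7 were called in both populations: ZNF750, ZNF732, ZNF736, ZNF713, ZNF692, ZNF569 and ZNF761. For these 7, and for the 5 called higher in both populations, the share of all genes called in both is not given here. ZNF732, a KRAB gene, had 3.07, 2.51 and 3.67 CPM in EPZ5676 ALDH1+ libraries, against 5.57, 4.34 and 4.34 CPM in DMSO ALDH1+ libraries. In ALDH1- cells it had 2.98, 2.81 and 3.41 CPM in EPZ5676, against 4.66, 4.52 and 4.68 CPM in DMSO. All EPZ5676 libraries lay below all DMSO libraries in both populations, with log2 fold changes of -0.64 ± 0.16 (SE, adjusted p = 0.00621) and -0.59 ± 0.17 (adjusted p = 0.0175) in ALDH1+ and ALDH1- cells.

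ZNF713, also a KRAB gene, had 21.5, 21.6 and 28.1 CPM in EPZ5676 ALDH1+ libraries, against 30.9, 29.9 and 31.0 CPM in DMSO ALDH1+ libraries. In ALDH1- cells it had 21.2, 21.4 and 23.7 CPM in EPZ5676, against 27.0, 31.0 and 35.3 CPM in DMSO. The groups were apart in both populations, although EPZ5676 ALDH1+ replicate 3 came close to DMSO. Its log2 fold changes were -0.37 ± 0.11 (SE, adjusted p = 0.0214) in ALDH1+ cells and -0.49 ± 0.12 (adjusted p = 0.00628) in ALDH1- cells. ZNF692, the AICAR response element binding protein that represses a gluconeogenic gene in liver cells, had 32.0, 34.8 and 30.5 CPM in EPZ5676 ALDH1+ libraries, against 42.3, 42.6 and 42.1 CPM in DMSO ALDH1+ libraries. Its log2 fold changes were -0.38 ± 0.10 (adjusted p = 0.00925) and -0.33 ± 0.10 (adjusted p = 0.0305) in ALDH1+ and ALDH1- cells, and in ALDH1- cells its groups overlapped.

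ZNF736 (KRAB) fell by 0.45 ± 0.14 in ALDH1+ cells (SE, adjusted p = 0.0231), where its groups overlapped narrowly, and by 0.53 ± 0.14 in ALDH1- cells (adjusted p = 0.0155). Among falls called in ALDH1+ cells alone, and leaving aside ZNF728, ZNF662, ZNF442, ZNF492, ZNF443, ZNF684 and ZNF695 were the largest, with log2 fold changes of -0.59 to -0.66. ZNF492 had 2.25, 2.93 and 3.17 CPM in EPZ5676 ALDH1+ libraries, against 4.22, 4.46 and 4.53 CPM in DMSO ALDH1+ libraries (adjusted p = 0.00299). ZNF443 had 7.10, 6.69 and 8.56 CPM in EPZ5676 ALDH1+ libraries, against 12.2, 9.64 and 12.4 CPM in DMSO ALDH1+ libraries (adjusted p = 0.00487). In ALDH1- cells the log2 fold changes of these 6 genes were -0.17 to -0.47 and were not called, while the replicate block called ZNF443 (adjusted p = 0.0120), ZNF684 (adjusted p = 0.00155) and ZNF695 (adjusted p = 0.0448) there. ZNF442 was the lowest of them at 0.963, 1.00 and 1.18 CPM in EPZ5676 ALDH1+ libraries, against 1.78, 1.31 and 1.77 CPM in DMSO ALDH1+ libraries.

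The falls called in ALDH1- cells alone were ZNF701, ZNF785, ZNF418 and ZNF778, which are KRAB genes, and ZNF740, which is not. ZNF701 had 17.9, 14.6 and 14.8 CPM in EPZ5676 ALDH1- libraries, against 22.5, 20.0 and 21.9 CPM in DMSO ALDH1- libraries, with groups apart and a difference of -0.45 ± 0.12 on the log2 scale (SE, adjusted p = 0.0159). ZNF785, ZNF418 and ZNF778 had log2 fold changes of -0.36 to -0.42 in ALDH1- cells and of -0.24 to -0.26 in ALDH1+ cells, where they were not called. ZNF728 also fell in ALDH1+ cells, by 0.79 on the log2 scale (adjusted p = 0.0253), at 0.499, 0.589 and 0.775 CPM in EPZ5676 libraries, against 1.06, 1.195 and 0.991 CPM in DMSO libraries. These low levels rest on few reads in the shallower libraries. Duplicated zinc finger genes share long stretches of sequence, and how the authors' counting divided reads that match several of them is not given in the sources used here, so values of close paralogs are uncertain.

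Members with a KRAB domain made up most of the falls. A pattern for the KRAB A box, applied to translated GENCODE 29 transcripts, matched 132 of the 231 tested members, and in the averaged effect 6 of these were called higher and 36 lower (27.3% lower). Of the 99 members without a match, 13 were higher and 11 lower (11.1% lower). The median averaged log2 fold change was -0.09 with a match and -0.02 without, and median DMSO levels were 11.6 and 16.8 CPM. A looser match, which accepts degenerate KRAB boxes, counted 157 members with 10 higher and 38 lower (24.2% lower), and left 74 with 9 higher and 9 lower (12.2% lower). Against the background of 21.9% higher and 20.0% lower in the averaged effect, KRAB members by either pattern had few higher calls, and lower calls somewhat above it. Within a population the lower calls were not above it: by the stricter pattern 18 of 132 fell in ALDH1+ cells (13.6%, against 13.7% of all genes) and 9 of 132 in ALDH1- cells (6.82%, against 9.04%). These counts are descriptions, and no test of the difference between the classes was made.

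By finger number, the 71 members with more than 12 fingers had 4 higher and 20 lower calls in the averaged effect (28.2% lower, against 20.0% of all genes, median -0.14). The 101 with 8 to 12 fingers had 9 higher and 17 lower (16.8% lower, median -0.03), and the 59 with fewer than 8 had 6 higher and 10 lower (16.9% lower, median -0.03), both below the background. Within a population, members with more than 12 fingers were not above it. Of these, 12.7% fell in ALDH1+ cells (against 13.7% of all genes) and 5.63% in ALDH1- cells (against 9.04%). In ALDH1- cells members with fewer than 8 fingers had the largest share lower, at 10.2%, against 1.98% with 8 to 12. Chromosome 19 held 132 of the tested members (57.1%), with 8 higher and 27 lower (20.5% lower), and the other chromosomes held 99, with 11 higher and 20 lower (20.2% lower), both near the background. KRAB members by the looser match had 24 of 111 called lower on chromosome 19 (21.6%) and 14 of 46 elsewhere (30.4%).

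Along chromosome 19 the calls differed between runs of neighbouring members, taken as stretches without a gap of over 1 Mb in RefSeq gene order. In the run from ZNF653 to ZNF791, 6 of 17 tested members were called lower (35.3%, against 20.0% of all genes) and 0 higher in the averaged effect, and 15 of 17 estimates were below 0 (median -0.22); the replicate block called 6 as well. In the run from ZNF506 to ZNF726, 6 of 19 were called lower (31.6%) and 0 higher, and 18 of 19 were below 0 (median -0.22); the replicate block called 14 of the 19 lower. In ALDH1+ cells 6 of 17 (35.3%) and 3 of 19 (15.8%) were called lower, against 13.7% of all genes, with medians of -0.22 and -0.28. In ALDH1- cells 0 members of either run were called lower, against 9.04% of all genes, though both medians were -0.17. The interaction of treatment and population called 0 members, so a difference between the populations was not shown. In the run from ZNF577 to ZNF761, 4 of 22 were lower (18.2%) and 0 higher (median -0.13), or 8 lower with the block. In the run from ZNF414 to ZNF562, 0 of 7 were called (median 0.08). In the run from ZNF565 to ZNF573, 2 of 17 were higher and 4 lower (11.8% and 23.5%, median -0.01). The run from ZNF628 to ZNF446 had 5 higher and 4 lower calls among 37 members (13.5% and 10.8%, median -0.04), against 21.9% and 20.0% of all genes. Neighbours share their duplication history, and these counts are a description with no test.

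**Figure D5:**
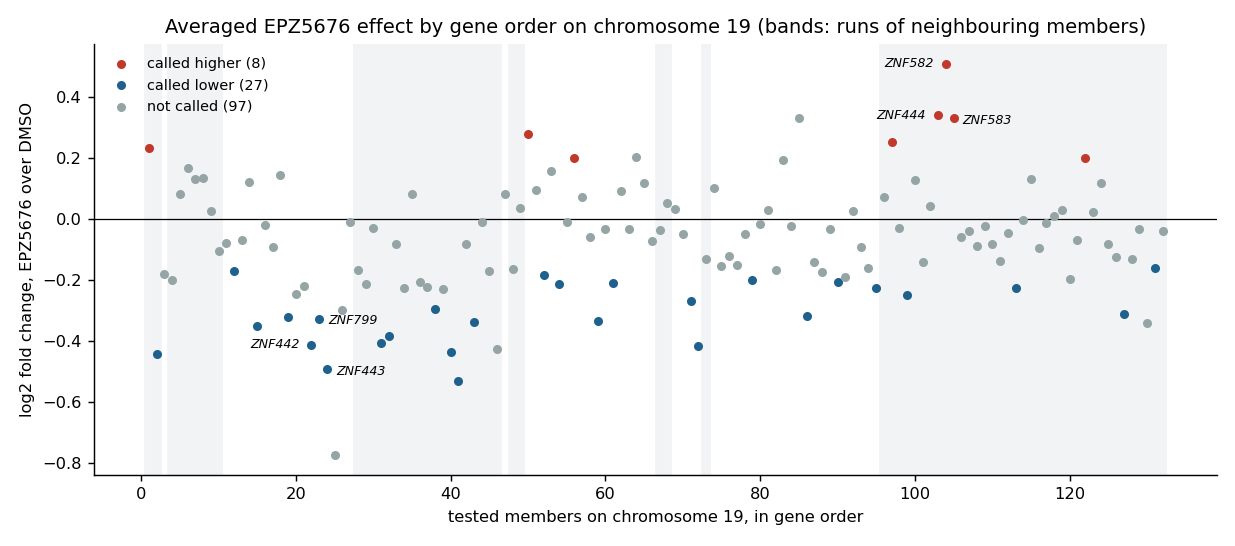
Averaged log2 fold change, EPZ5676 over DMSO, of the 132 tested members on chromosome 19 in gene order. Red points are called higher, blue lower and grey not called, and grey bands mark every other run of neighbouring members. ZNF442, ZNF799 and ZNF443 lie side by side at -0.41, -0.33 and -0.49, and ZNF444, ZNF582 and ZNF583 side by side at 0.34, 0.51 and 0.33.

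Both kinds of neighbourhood held adjacent members called the same way. ZNF442, ZNF799 and ZNF443 are consecutive members and all fell in ALDH1+ cells. ZNF799 had 6.71, 6.64 and 8.39 CPM in EPZ5676 ALDH1+ libraries, against 10.5, 8.40 and 10.8 CPM in DMSO ALDH1+ libraries, with groups apart by a narrow margin (log2 fold change -0.46, adjusted p = 0.0226). ZNF444, ZNF582 and ZNF583 are consecutive members in the far run and all rose in both populations. The caveat on reads that match several close paralogs applies to such neighbours too, so their moving together is uncertain. Because these 2 trios were called alike, their promoters were read for shared letters.

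The windows run from 250 bases before to 50 bases after the RefSeq gene start and are shown for these 2 trios alone. Capitals mark matches, on either strand, to motifs given by their letters: CCGGAAG (ETS factors), GGGCGG (GC box), TATAAA (bound by TBP), AAGATGGC (YY1) and TGACGTCA (CRE). Of the trio that rose, the windows were these:
ZNF444 (GRCh38.p14, chr19:56141037-56141336, plus strand): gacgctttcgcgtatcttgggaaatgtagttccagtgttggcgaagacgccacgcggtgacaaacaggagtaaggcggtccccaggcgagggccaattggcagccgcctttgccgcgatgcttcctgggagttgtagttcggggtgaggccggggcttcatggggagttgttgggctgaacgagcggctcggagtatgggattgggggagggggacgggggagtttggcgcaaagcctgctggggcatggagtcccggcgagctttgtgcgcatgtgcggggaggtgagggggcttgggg
ZNF582 (GRCh38.p14, chr19:56393485-56393784, minus strand): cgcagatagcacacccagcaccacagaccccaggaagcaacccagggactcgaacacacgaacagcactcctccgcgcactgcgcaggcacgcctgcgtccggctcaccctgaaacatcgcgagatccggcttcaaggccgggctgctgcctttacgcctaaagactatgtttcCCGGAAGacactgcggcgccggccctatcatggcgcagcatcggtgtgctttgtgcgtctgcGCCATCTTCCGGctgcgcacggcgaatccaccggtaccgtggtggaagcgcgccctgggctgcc
ZNF583 (GRCh38.p14, chr19:56403764-56404063, plus strand): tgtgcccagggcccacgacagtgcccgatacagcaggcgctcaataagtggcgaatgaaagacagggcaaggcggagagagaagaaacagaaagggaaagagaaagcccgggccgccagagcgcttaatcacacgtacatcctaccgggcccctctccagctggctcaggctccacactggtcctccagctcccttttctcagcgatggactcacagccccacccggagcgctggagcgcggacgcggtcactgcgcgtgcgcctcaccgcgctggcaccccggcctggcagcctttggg
Of the trio that fell, they were these:
ZNF442 (GRCh38.p14, chr19:12365634-12365933, minus strand): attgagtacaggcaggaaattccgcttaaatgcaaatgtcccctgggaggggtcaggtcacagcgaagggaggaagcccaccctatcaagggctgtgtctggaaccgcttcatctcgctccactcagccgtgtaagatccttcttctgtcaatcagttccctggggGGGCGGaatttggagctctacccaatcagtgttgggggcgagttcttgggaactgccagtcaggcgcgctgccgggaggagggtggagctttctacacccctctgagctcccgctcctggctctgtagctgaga
ZNF799 (GRCh38.p14, chr19:12401222-12401521, minus strand): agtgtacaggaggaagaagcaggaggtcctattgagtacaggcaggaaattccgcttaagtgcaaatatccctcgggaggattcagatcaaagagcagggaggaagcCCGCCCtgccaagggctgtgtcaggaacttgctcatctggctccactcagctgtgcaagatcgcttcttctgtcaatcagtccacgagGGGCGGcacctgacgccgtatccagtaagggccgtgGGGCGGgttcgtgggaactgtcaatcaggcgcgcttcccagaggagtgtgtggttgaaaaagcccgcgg
ZNF443 (GRCh38.p14, chr19:12440972-12441271, minus strand): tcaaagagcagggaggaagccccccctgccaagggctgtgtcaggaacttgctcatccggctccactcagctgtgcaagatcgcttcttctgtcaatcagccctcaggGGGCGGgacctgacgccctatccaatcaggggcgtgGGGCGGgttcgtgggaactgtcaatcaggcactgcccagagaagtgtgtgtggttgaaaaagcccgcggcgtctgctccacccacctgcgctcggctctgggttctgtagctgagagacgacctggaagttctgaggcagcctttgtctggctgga
RefSeq lists 2 windows each for ZNF583 and ZNF799, and the more upstream of them is printed.

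The windows of the trio that fell shared longer stretches than those of the trio that rose. Both trios were picked for their calls, and windows of uncalled neighbours were not compared. A link between shared letters and the response was not tested. The longest stretch of identical bases was 42 between ZNF799 and ZNF443, 29 between ZNF442 and ZNF799 and 17 between ZNF442 and ZNF443. Among ZNF444, ZNF582 and ZNF583 it was 8 to 10 bases, no longer than between the trios, where it was 7 to 11. The windows of ZNF442, ZNF799 and ZNF443 held 1, 3 and 2 GC boxes and none of the other motifs. The ZNF582 window held ETS matches at bases 175 and 242 and a YY1 match at base 237, counted from the window's 5′ end, and the last ETS match overlaps the YY1 match. None of the 5 motifs was found in the ZNF444 and ZNF583 windows, which says only that these letters are absent there.

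Over the whole class, promoter windows were found for 218 of the 260 members (274 windows). The ETS letters were in 33.2% of the members' windows, against 10.3% of all 35116 windows, and the GC box was in 65.0% against 45.0%. The TBP letters were in 5.11% against 11.5%, CRE in 3.65% against 1.85% and YY1 in 3.65% against 2.89%. The members' windows held a median of 22 CpG, against 14 in all windows. Members called higher and lower in the averaged effect were alike in ETS share, at 31.6% of 19 windows and 32.1% of 53 windows. ZNF462 and ZNF750 are named here without a window.

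Among the lineage and differentiation regulators, 12 of 13 listed genes were in the table and 7 were tested. In ALDH1+ cells 4 rose (ZNF462, ZNF516, ZNF469 and ZNF746) and 1 fell (ZNF750), with a median log2 fold change of 0.23. That is 57.1% higher and 14.3% lower (71.4% called), against 17.8% and 13.7% of all genes (31.5% called). In ALDH1- cells 1 rose and 1 fell (28.6%, against 22.6%). In the averaged effect 3 rose and 1 fell (57.1%, against 41.9%), and ZNF469 was not called. This list and those below were chosen with earlier results of these data known, so their shares are a description only. ZNF516, which promotes brown fat genes in mice, had 22.8, 22.4 and 18.5 CPM in EPZ5676 ALDH1+ libraries, against 18.01, 18.7 and 15.2 CPM in DMSO ALDH1+ libraries, and its groups overlapped (log2 fold change 0.30, adjusted p = 0.0469). ZNF469, mutated in brittle cornea syndrome, had 72.2, 71.1 and 69.2 CPM in EPZ5676 ALDH1+ libraries, against 65.6, 59.6 and 48.9 CPM in DMSO ALDH1+ libraries (log2 fold change 0.29, adjusted p = 0.0445). ZNF746 (PARIS), a substrate of parkin that represses the PGC-1alpha gene, rose by 0.23 on the same scale (adjusted p = 0.0258). ZNF608 and ZNF609 were not called in any treatment comparison, and ZNF423, ZNF521, ZNF536, ZNF683 and ZNF711 were below the filter. The small rises of ZNF469, ZNF516 and ZNF746 lost their call under 5 to 11 of the 21 alternatives.

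The other role lists moved little. ZNF703, a luminal breast cancer oncogene, averaged 18.2 CPM in EPZ5676 ALDH1- libraries and 17.9 CPM in DMSO ALDH1- libraries and was not called in either population; its relative ZNF503 averaged 14.3 and 11.8 CPM in EPZ5676 ALDH1- and DMSO ALDH1- libraries, and its averaged log2 fold change of 0.24 was called only with the replicate block (adjusted p = 0.00314), as was its ALDH1- value (adjusted p = 0.0206). The zinc finger members of the Z3 complex, ZNF532, ZNF592 and ZNF687, were not called, with averaged log2 fold changes of 0.05, -0.06 and -0.10, though the replicate block called ZNF687 lower in ALDH1- cells (-0.215, adjusted p = 0.0162). Their partner ZMYND8, a reader of histone marks and no member, fell to 49.5 CPM in EPZ5676 ALDH1+ libraries, against 74.6 CPM in DMSO ALDH1+ libraries (log2 fold change -0.595 ± 0.10, adjusted p = 0.000294), and its ALDH1- value was -0.57 ± 0.10 (adjusted p = 0.000650). Of the 6 genes for RNA, ribosome and SUMO functions, ZNF622 rose in ALDH1- cells and ZNF598, ZNF593, ZNF451, ZNF638 and ZNF706 were not called, with averaged values between -0.01 and 0.05.

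Of 10 KRAB repressors with known transposon or imprint targets 9 were tested, and 2 fell in ALDH1+ cells, ZNF440 and ZNF433 (22.2%, against 13.7% of all genes). In ALDH1- cells 0 of 9 were called, and in the averaged effect 3 fell (33.3%, against 20.0%), or 5 with the replicate block. ZNF440 had 17.6, 16.7 and 20.0 CPM in EPZ5676 ALDH1+ libraries, against 22.9, 22.5 and 27.9 CPM in DMSO ALDH1+ libraries, with groups apart (log2 fold change -0.44 ± 0.10, SE, adjusted p = 0.00393). ZNF433 had 5.53, 5.03 and 6.10 CPM in EPZ5676 ALDH1+ libraries, against 7.02, 7.01 and 8.67 CPM in DMSO ALDH1+ libraries (log2 fold change -0.47 ± 0.13, adjusted p = 0.0155). Neither was called in ALDH1- cells, though the replicate block called ZNF440 there (adjusted p = 0.0139). ZNF445, which guards imprinted loci, was called lower in the averaged effect (-0.23 ± 0.08, adjusted p = 0.0333), and with the replicate block also in ALDH1- cells (adjusted p = 0.0420). The averaged values of ZNF417 and ZNF587, which bind HERV-K class repeats, were -0.13 and -0.08, those of ZNF649, ZNF765 and ZNF611 were -0.16, -0.16 and -0.14, and that of ZNF558 was 0.08. None of these 6 was called, while the replicate block called ZNF649 (adjusted p = 0.0370) and ZNF765 (adjusted p = 0.0343) lower in the averaged effect.

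Among 10 SCAN and other DNA binders without a match to the stricter KRAB pattern, ZNF444 rose in both populations and ZNF692 fell in both. ZNF446 and ZNF496 of this list did have the looser KRAB match. ZNF740 fell in ALDH1- cells, with 21.9, 25.02 and 23.6 CPM in EPZ5676 libraries, against 29.5, 27.7 and 28.5 CPM in DMSO libraries (log2 fold change -0.28 ± 0.07, adjusted p = 0.0134), and was at -0.03 in ALDH1+ cells. ZNF639 was called higher in the averaged effect (0.15 ± 0.06, adjusted p = 0.0446), and with the replicate block also in ALDH1- cells (adjusted p = 0.0262). ZNF446, ZNF496, ZNF507, ZNF652, ZNF768 and ZNF410 were not called in any treatment comparison.

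The corepressor genes that KRAB proteins work through leaned downward by small amounts. Of 17 tested, 3 fell in ALDH1+ cells and 4 in ALDH1- cells, 0 rose in either population, and 6 fell in the averaged effect (35.3%, against 20.0% of all genes): SETDB1, ATF7IP, CHD3, DNMT1, HDAC2 and HDAC1. SETDB1 averaged 47.4 CPM in EPZ5676 ALDH1+ libraries and 55.8 CPM in DMSO ALDH1+ libraries (log2 fold change -0.24 ± 0.07, adjusted p = 0.0158), and 47.2 CPM in EPZ5676 ALDH1- and 57.6 CPM in DMSO ALDH1- libraries (-0.29 ± 0.07, adjusted p = 0.00744). ATF7IP, the nuclear partner of SETDB1, fell in ALDH1- cells by 0.33 ± 0.09 (adjusted p = 0.0139). TRIM28 itself averaged 691 CPM in EPZ5676 ALDH1+ libraries and 751 CPM in DMSO ALDH1+ libraries, an averaged log2 fold change of -0.12 ± 0.05 (adjusted p = 0.0731, or 0.0191 with the replicate block). UHRF1 was not analysed here.

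Zinc finger genes outside the range behaved much like those inside it. Of 197 tested genes with other ZNF numbers, 15 were called higher and 33 lower in the averaged effect (7.61% and 16.8%), with a median of -0.06. In ALDH1+ cells 12 were higher and 18 lower, and in ALDH1- cells 8 were higher and 10 lower. Of 39 tested ZKSCAN, ZSCAN and ZFP genes, 2 were higher and 4 lower in the averaged effect, with a median of -0.02. This smaller set had 1 higher and 3 lower in ALDH1+ cells and 2 higher and 1 lower in ALDH1- cells. In the averaged effect both sets had fewer higher than lower calls and a share of higher calls below the 21.9% of all genes.

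The response to EPZ5676 was not shown to differ between the sorted populations for any member. The interaction of treatment and population called 0 of 231 members with edgeR (0.0% of all genes), DESeq2 and limma-voom. With edgeR 5 members had an unadjusted p below 0.05 (2.16%, against 3.66% of all genes). The smallest belonged to ZNF469, whose effect in ALDH1+ minus that in ALDH1- cells was 0.45 ± 0.15 (SE, unadjusted p = 0.00834, adjusted p = 0.979), and to ZNF669 at -0.405 ± 0.14 (unadjusted p = 0.0123, adjusted p = 0.979). ZNF469 had 56.3, 59.3 and 57.6 CPM in EPZ5676 ALDH1- libraries, against 56.7, 63.0 and 73.6 CPM in DMSO ALDH1- libraries, so its groups overlapped there.

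Between ALDH1+ and ALDH1- cells differences were small, and more members lay lower in ALDH1+ cells. Under EPZ5676 0 members were called (0.0184% of all genes, 3 in number) with edgeR, DESeq2 or limma-voom. With edgeR 9 had an unadjusted p below 0.05 (3.9%, against 6.32% of all genes), of which 8 were lower in ALDH1+. ZNF442 had the smallest p, at 0.963, 1.00 and 1.18 CPM in EPZ5676 ALDH1+ libraries and 2.00, 1.75 and 1.59 CPM in EPZ5676 ALDH1- libraries (log2 fold change -0.77 ± 0.19, SE, adjusted p = 0.398). These groups did not overlap, as was the case for 18 members lower (7.79%, against 4.62% of all genes) and 2 higher (0.866%, against 4.95%). Under EPZ5676, ALDH1+ over ALDH1- estimates were below 0 for 163 members (70.6%, against 50.3% of all genes), with a median of -0.055, against -0.001 for all genes.

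In DMSO 0 members were called between ALDH1+ and ALDH1- cells (0.0% of all genes) with edgeR or limma-voom and 2 lower with DESeq2. With edgeR 19 had an unadjusted p below 0.05 (8.23%, against 17.8% of all genes), of which 17 were lower in ALDH1+. The replicate block called 11 members lower in ALDH1+ cells (4.76%, against 5.02% of all genes) and 0 higher (against 3.45%). The 11 were ZNF407, ZNF419, ZNF462, ZNF516, ZNF598, ZNF609, ZNF629, ZNF646, ZNF674, ZNF740 and ZNF773. ZNF629 had 25.4, 23.6 and 22.3 CPM in DMSO ALDH1+ libraries and 29.8, 28.3 and 29.4 CPM in DMSO ALDH1- libraries (log2 fold change -0.30 ± 0.08, SE, adjusted p = 0.161, or 0.0174 with the block). ZNF740 was next, with 23.7, 24.3 and 23.1 CPM in DMSO ALDH1+ and 29.5, 27.7 and 28.5 CPM in DMSO ALDH1- libraries (adjusted p = 0.161, or 0.0287 with the block). The median log2 fold change of the members, ALDH1+ over ALDH1-, was -0.05 in DMSO, against -0.01 for all genes, and 141 members (61.0%, against 51.6% of all genes) were below 0. The 3 DMSO ALDH1+ libraries lay below the 3 DMSO ALDH1- libraries for 28 members (12.1%, against 12.4% of all genes) and above them for 5 (2.16%, against 10.6%).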

How the data were processed

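Total RNA of sorted MDA-MB-468 cells was sequenced in 12 libraries, made with a directional kit per the labels. Trim Galore, STAR and hg19 appear in the submitters' processing notes; how reads were assigned to genes, with or without strand, is not given in the sources used. The deposited table holds raw whole-number counts per gene, from 24348594 to 80195050 per library. All else was computed from these counts.

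Ensembl identifiers were mapped to symbols (51959 of 57783). Genes were kept by filterByExpr by group, scaled by TMM and tested with edgeR 4.0.16 in R 4.3.3, in 1 fit over all libraries with a term per group and Benjamini-Hochberg adjustment over 16327 genes; called means adjusted p below 0.05. The fit was tested on simulated data. DESeq2 1.42.0, limma-voom (limma 3.58.1), other scalings and filters, the replicate block and each library left out in turn were alternatives. Same-numbered libraries deviated together (correlations 0.16 to 0.59 in 18 pairs, against -0.61 to 0.18 in 36 pairs of other numbers), so the numbers pair them; replicates of a group differed by more than sampling noise. The labels call the replicates biological and say nothing more of their origin.

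The members and lists were chosen with earlier results of these data known. Members named are, per treatment comparison, the 8 largest called rises and falls (mean log2 CPM 0 or more, groups that do not overlap), the 5 smallest p in each other comparison, the role lists, the 5 highest levels per kb, and corepressor genes that passed; ZNF728, ZNF799, ZNF569, ZNF761, ZNF692 and ZNF740 beside counts and neighbours were added after their values were seen. KRAB and finger patterns were searched in GENCODE 29 proteins. Promoters and gene order come from RefSeq on GRCh38.p14, not the files' build, and no position from the files was used. A gene of the corepressor list is not reported here. Tables and figures used Python 3.11.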

Additional observations from a re-analysis of the deposited data

How the results depend on the processing

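With the replicate block, EPZ5676 over DMSO called 22 members higher and 49 lower in ALDH1+ cells and 14 higher and 27 lower in ALDH1- cells, and ALDH1+ over ALDH1- in DMSO called 11 lower; the averaged counts with the block were 23 higher and 69 lower. At an adjusted p below 0.01 there were 4 higher and 7 lower in ALDH1+ cells and 1 higher and 2 lower in ALDH1- cells. Without TMM factors 7 were lower in ALDH1- cells. ALDH1+ over ALDH1- in DMSO called 2 lower with DESeq2 and 2 lower with no filter. Leaving out libraries gave 4 to 11 higher and 10 to 38 lower calls in ALDH1+ cells, 2 to 7 higher and 3 to 14 lower in ALDH1- cells, and 12 to 17 higher and 31 to 58 lower in the averaged effect; the interaction and population counts stayed at 0. The 4 libraries numbered 3, protein-coding genes alone and the looser KRAB match were alternatives chosen after seeing the data. Against protein-coding genes of like level, 24.6% of other genes were called higher and 20.0% lower in the averaged effect. Apart from the block, shares of all genes called when libraries, scaling, filter, method or threshold changed are not given here. A general change in calls can therefore not be told from one particular to the members. The cause of these differences was not tested.

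Of single-gene values under the alternatives, 9440 kept direction and side of the threshold, 136 gained a call, 456 lost it and 0 turned round. Calls that held under every alternative were 11 of 39 in ALDH1+ cells, 3 of 18 in ALDH1- cells (ZNF462, ZNF713 and ZNF750) and 35 of 66 in the averaged effect. There were 3 libraries a group, and the common biological variation was 9.58%, which limits the size of change the test could call.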

Other observations

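Members below the filter on low counts included regulators of other lineages. ZNF423 and ZNF521, transcription factors of adipocyte and haematopoietic lineages, and ZNF536, ZNF683 and ZNF711 were below the filter in all groups. ZNF423, ZNF521 and ZNF536 were listed at 0 in every library, which need not mean that they are not expressed. ZNF410, which is known to act on the CHD4 gene, was tested at only 0.606, 0.564 and 0.506 CPM in EPZ5676 ALDH1+ libraries, against 0.837, 0.598 and 0.744 CPM in DMSO ALDH1+ libraries (log2 fold change -0.38 ± 0.25, SE, adjusted p = 0.266), and CHD4 had a log2 fold change of 0.04 ± 0.08 (adjusted p = 0.731) in the same cells.

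ZNF776 rose in ALDH1+ cells, with 47.3, 40.9 and 47.2 CPM in EPZ5676 libraries, against 39.9, 38.2 and 36.1 CPM in DMSO libraries (log2 fold change 0.24, adjusted p = 0.0349). ZNF569, a KRAB gene, fell in both populations, with 21.2, 22.4 and 24.5 CPM in EPZ5676 ALDH1+ libraries, against 27.5, 30.6 and 31.6 CPM in DMSO ALDH1+ libraries, and 24.8, 24.2 and 25.8 CPM in EPZ5676 ALDH1- libraries, against 27.4, 30.3 and 32.3 CPM in DMSO ALDH1- libraries. Its groups did not overlap in either population (log2 fold changes -0.40, adjusted p = 0.00286, and -0.27, adjusted p = 0.0404, in ALDH1+ and ALDH1- cells). Both genes were picked after their values were seen.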
